A study of Mus musculus with 4 samples.

Results

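The transcripts of 7 transcription regulators of stem-like Tc were followed across CD8+ and CD4+ Tc states and from cell to cell, namely Tcf7, Lef1, Id3, Bach2, Bcl6, Foxo1 and Satb1. They were chosen by gene symbol, each symbol had a single row, and together they made up 7 of the 32285 genes counted. Single-cell RNA had been sequenced in 4 libraries, each from the spleen of a different mouse on day 23 after bone marrow transplantation (BMT). All 4 recipients were BALB/c mice that had been lethally irradiated, carried the BALB/c myelomonocytic leukemia line WEHI-3B, and were given allogeneic C57BL/6-background bone marrow and, later, donor Tc. Donors of 2 libraries were labelled Havcr2fl/fl;E8icre/+ and donors of the other 2 were labelled Havcr2fl/fl, so both groups carried the floxed alleles of Havcr2, the gene for the inhibitory receptor TIM-3. E8i-cre acts in CD8+ Tc, so CD4+ Tc of both groups should keep Havcr2, and the groups differ in the Cre allele as well as in the deletion. The labels give no age. Values of the 4 libraries are given below in a fixed order: those labelled Havcr2fl/fl;E8icre/+ 1 and 2, then those labelled Havcr2fl/fl 1 and 2.

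As background, chronically stimulated CD8+ Tc are maintained by a small stem-like pool, the precursors of exhausted Tc (TPEX), which self-renew and give rise to terminally exhausted Tc (TTEX) and effector-like Tc (Teff). TCF-1, the product of Tcf7, is the factor by which this pool is usually recognized, and its paralog LEF-1 binds the same DNA motif through a closely related HMG box. ID3 has no DNA-binding domain of its own and inhibits E proteins, the helix-loop-helix factors that bind E-box motifs. BACH2 and BCL6 are repressors, BACH2 at AP-1 type sites and BCL6 in opposition to Blimp-1, the product of Prdm1. FOXO1 is a forkhead factor held in the cytoplasm by AKT signaling and drives genes of resting Tc such as Il7r and Klf2. SATB1 organizes chromatin in thymocytes and in peripheral Tc.

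In the mm10 (GRCm38) annotation the 7 genes lie on 5 chromosomes. Tcf7 spans chr11:52252371-52283014 on the minus strand, Lef1 chr3:131110471-131224356 and Foxo1 chr3:52268336-52353221 on the plus strand, and Id3 chr4:136143497-136145755 and Bach2 chr4:32238804-32586108 on the plus strand. Bcl6 spans chr16:23965052-23988852 and Satb1 chr17:51736187-51833290, both on the minus strand. RefSeq lists 16 start sites for the 7 genes on GRCm38.p6, and the window from 250 bases before to 50 bases after each was searched on both strands for 5 motifs, spelled CTTTGAT (TCF/LEF), TGTTTAC (FOXO), TGAGTCA (AP-1 and BACH core), CAGCTG (an E-box) and TTCCTAGAA (BCL6). CAGCTG was in 3 of the 16 windows, against 16.3% of all 32851 RefSeq windows of this length. The FOXO letters were in 1 of the 16, a window of Tcf7, against 3.65% of all windows. None of the 16 held the TCF/LEF letters (3.73% of all windows), the AP-1 and BACH core (5.2%) or the BCL6 letters (0.411%). Sequences are shown for Tcf7 and the 3 members whose levels were most correlated with it across states, Id3, Lef1 and Satb1. Each is the 250 bases before 1 start site, read 5′ to 3′ on the gene's strand, with CAGCTG in capitals. Other spellings of an E-box were neither searched nor marked. For Tcf7, Lef1 and Satb1 the window with CAGCTG is shown, and none of their other windows held it. A start site can lie inside a longer transcript of the same gene.
Tcf7 (chr11:52283015-52283264, minus strand): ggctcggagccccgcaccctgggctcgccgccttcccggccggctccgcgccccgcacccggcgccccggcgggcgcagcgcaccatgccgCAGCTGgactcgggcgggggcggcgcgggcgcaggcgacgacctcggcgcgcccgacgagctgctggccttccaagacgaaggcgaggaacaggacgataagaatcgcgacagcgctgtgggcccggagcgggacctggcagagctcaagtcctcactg
Lef1 (chr3:131112541-131112790, plus strand): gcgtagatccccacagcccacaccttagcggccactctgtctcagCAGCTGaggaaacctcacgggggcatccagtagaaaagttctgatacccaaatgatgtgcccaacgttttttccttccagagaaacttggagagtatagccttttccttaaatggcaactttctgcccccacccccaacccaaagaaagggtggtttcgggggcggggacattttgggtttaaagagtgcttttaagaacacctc
Satb1 (chr17:51826589-51826838, minus strand): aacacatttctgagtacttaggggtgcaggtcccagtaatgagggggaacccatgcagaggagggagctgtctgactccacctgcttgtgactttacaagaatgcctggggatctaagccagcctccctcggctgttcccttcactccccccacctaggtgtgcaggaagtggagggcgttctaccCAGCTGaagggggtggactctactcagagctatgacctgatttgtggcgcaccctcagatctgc
Id3 (chr4:136143572-136143821, plus strand): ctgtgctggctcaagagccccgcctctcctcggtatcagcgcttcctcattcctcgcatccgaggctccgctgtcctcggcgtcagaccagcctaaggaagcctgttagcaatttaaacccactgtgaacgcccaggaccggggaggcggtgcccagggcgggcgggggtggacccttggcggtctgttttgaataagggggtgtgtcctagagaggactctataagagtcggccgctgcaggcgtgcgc
The capitals mark CAGCTG at position -159 from the Tcf7 start site, -205 from the Lef1 start site and -64 from the Satb1 start site. The Satb1 window also held CAGCTG at position 10 after the start site, outside the stretch shown. The single Id3 window held none of the 5 motifs, and a match of letters is a description and not evidence of binding.

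After filtering, 11507 of 15784 cell barcodes remained, of which 6765 were Tc, and 28 barcode sequences occurred in more than 1 library. CD8+ Tc (cells in which UMIs of Cd8a or Cd8b1 but none of Cd4 were counted) numbered 1530, 957, 486 and 1286 in the 4 libraries, 4259 in all, and CD4+ Tc (the reverse) numbered 576, 624, 241 and 312, 1753 in all. UMIs are molecule counts, and the median UMI count of CD8+ Tc was 4749, 6164, 6975 and 3025, so the library labelled Havcr2fl/fl 2 was the shallowest, and every share of cells below was taken after thinning each cell to 2000 UMIs. Thinning left out 43 of 2487 CD8+ Tc labelled Havcr2fl/fl;E8icre/+ and 162 of 1772 labelled Havcr2fl/fl. The targeted gene went against a label: Havcr2 was at 61.2, 7.90, 54.8 and 115 CPM in CD8+ Tc, so the library labelled Havcr2fl/fl;E8icre/+ 1 lay within the range of the controls, while that labelled Havcr2fl/fl;E8icre/+ 2 lay below it. In CD4+ Tc Havcr2 was at 56.5, 29.3, 16.8 and 49.3 CPM, so only the library labelled Havcr2fl/fl;E8icre/+ 2 was lower in CD8+ than in CD4+ Tc. Counts from 3′ ends need not fall in the deleted part of the gene, so the level cannot settle the label. Why the libraries labelled Havcr2fl/fl;E8icre/+ differ in Havcr2 was not tested, and each genotype result below is read with that in view. States were clusters named from marker genes after leaving the 7 genes and Havcr2 out of both the clustering and the markers, and the levels across states are therefore a description without a test. A level per state is the UMIs of a gene over all UMIs of that state in 1 library, in counts per 1000000 (CPM), and because the counts come from 3′ ends a CPM does not depend on gene length.

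Tcf7 marked the TPEX-like cluster of CD8+ Tc. That cluster was named from Slamf6, Xcl1, Cxcr5, Il7r, Cd200, Ltb and Icos, all 7 of which were raised in it, and it held 530 cells, or 12.4% of CD8+ Tc (10.0, 19.2, 14.0 and 9.72% in the 4 libraries). Tcf7 stood there at 442, 428, 268 and 295 CPM (mean 358 ± 89.7, SD, n = 4), from 327, 515, 117 and 122 UMIs. In the other CD8+ Tc of the same libraries it stood at 24.6, 38.7, 27.4 and 16.1 CPM, so the log2 ratio was 3.73 ± 0.45 (SD, n = 4) and positive in 4 of 4 libraries. The lowest TPEX-like library was still well above the highest value of the remaining cells, and the libraries did not overlap. At 2000 UMIs per cell a Tcf7 UMI was seen in 53.3, 52.5, 29.7 and 40.7% of TPEX-like cells, against 1.75, 0.669, 0 and 0.594% of the erythroid-like cells of the same suspensions, which should lack Tcf7; their median depth before thinning was 5288, 6136, 8947 and 5672 UMIs. TTEX-like cells (753 cells) had Tcf7 at 5.19, 9.25, 0 and 2.13 CPM and a UMI in 0.64% of cells on average, which is at the level of that background. Teff-like cells (423 cells) gave a single Tcf7 UMI over the 4 libraries.

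Among the other CD8+ states only cluster 9 came near the TPEX-like level of Tcf7, at 378, 361, 271 and 120 CPM, and the 2 ranges overlapped. Cluster 9 is small (69 cells: 15, 22, 18 and 14) and was left unnamed: all 7 naive or memory markers, among them Ccr7, were raised in it, but globin genes and Trdc led its list, and the summed level of 7 erythroid markers in it was 36730 to 135600 CPM against 287.8 to 4279 CPM in the TPEX-like cluster. The part of that erythroid RNA in the levels of cluster 9 was not tested. Tcf7 was intermediate in interferon-like cells (mean 78.2 CPM, 36 cells, 7 UMIs), short-term effector-like cells (58.2 CPM), a cycling cluster (51.3 CPM) and the unnamed cluster 6 (48.1 CPM), which was led by Rap1gap2, Klf2 and Cx3cr1, and the libraries of these neighbours overlapped. Resident-like cells, the largest CD8+ state with 1127 cells, had 28.1, 33.2, 11.2 and 6.23 CPM.

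Id3 followed Tcf7 more closely than any other of the 5921 genes ranked by their levels across the 17 states (Pearson r = 0.936 over states, a description, since states share libraries). In TPEX-like cells Id3 was at 135, 196, 87.0 and 191 CPM, and in the other CD8+ Tc at 5.31, 14.4, 8.18 and 3.86 CPM, a log2 ratio of 4.17 ± 0.90 (SD, n = 4). This was the steepest ratio of the 7 genes, and again the libraries did not overlap. Interferon-like CD8+ Tc (36 cells) came next in Id3 at a mean of 39.6 CPM, lower in 4 of 4 libraries but with overlapping ranges. Teff-like cells had no Id3 UMI in any library, and 0 of 359 thinned cells allows, at 3 counts and for counting error only, a share of up to 0.836%. TTEX-like cells had 7 Id3 UMIs in all, a mean of 1.59 CPM. Id3 separated the TPEX-like cells from cluster 9, where it reached 40.4 CPM in the library labelled Havcr2fl/fl 1 and 64.7 CPM in that labelled Havcr2fl/fl;E8icre/+ 2, but only 21.6 and 13.3 CPM in the other libraries.

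Lef1 and Satb1 were spread over more CD8+ states than Tcf7 and Id3. In TPEX-like cells Lef1 was at 60.9, 44.1, 108 and 70.2 CPM and Satb1 at 185, 146, 142 and 87.1 CPM, with log2 ratios to the other CD8+ Tc of 1.04 ± 0.79 and 1.18 ± 0.35 (SD, n = 4), both positive in 4 of 4 libraries. Lef1 was nevertheless at a higher mean in 3 other states: cluster 9 (205 CPM), short-term effector-like cells (98.4 CPM) and cluster 6 (88.1 CPM). For Satb1 the order of means was cluster 9 (258 CPM), short-term effector-like (190 CPM), interferon-like (185 CPM), TPEX-like (140 CPM) and resident-like (105 CPM). Neighbours in each of these orders had overlapping libraries, so the orders are not firm. The marker list of short-term effector-like cells was Klrg1, Cx3cr1, Zeb2, S1pr5, S1pr1, Itgam and Klf2, of which S1pr1 and Klf2 are also naive or memory markers. These cells thus had Lef1 and Satb1 at TPEX-like levels or above with little Id3 (7.41 CPM). TTEX-like cells were low in both, at a mean of 7.05 CPM for Lef1 and 32.7 CPM for Satb1.

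The 3 remaining genes were sparse or even. Bach2 was at 33.8, 31.6, 4.58 and 19.4 CPM in TPEX-like cells, from 25, 38, 2 and 8 UMIs, and the ratio to the other CD8+ Tc was positive in 3 of 4 libraries (log2 0.93 ± 1.44, SD, n = 4). Its highest mean was in cluster 9, at 140, 64.7, 40.4 and 13.3 CPM, again with overlapping libraries. Bcl6 was rare everywhere but narrow in TPEX-like cells, at 14.9, 16.6, 13.7 and 14.5 CPM from 11, 20, 6 and 6 UMIs, above the other CD8+ Tc in 4 of 4 libraries (log2 1.78 ± 0.65). Resident-like cells, next in the order of Bcl6 at a mean of 7.53 CPM, did not overlap with TPEX-like cells, whereas single libraries of short-term effector-like cells (up to 15.2 CPM, 6 UMIs in all) and interferon-like cells (29.5 CPM from 1 UMI) reached or passed them. Foxo1 hardly varied: its mean lay between 48.3 and 76.1 CPM in 10 of the 11 CD8+ states, and the log2 ratio of TPEX-like to other CD8+ Tc was 0.20 ± 0.22 (SD, n = 4). A transcript level says nothing of where the FOXO1 protein is in the cell.

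**Figure D1:**
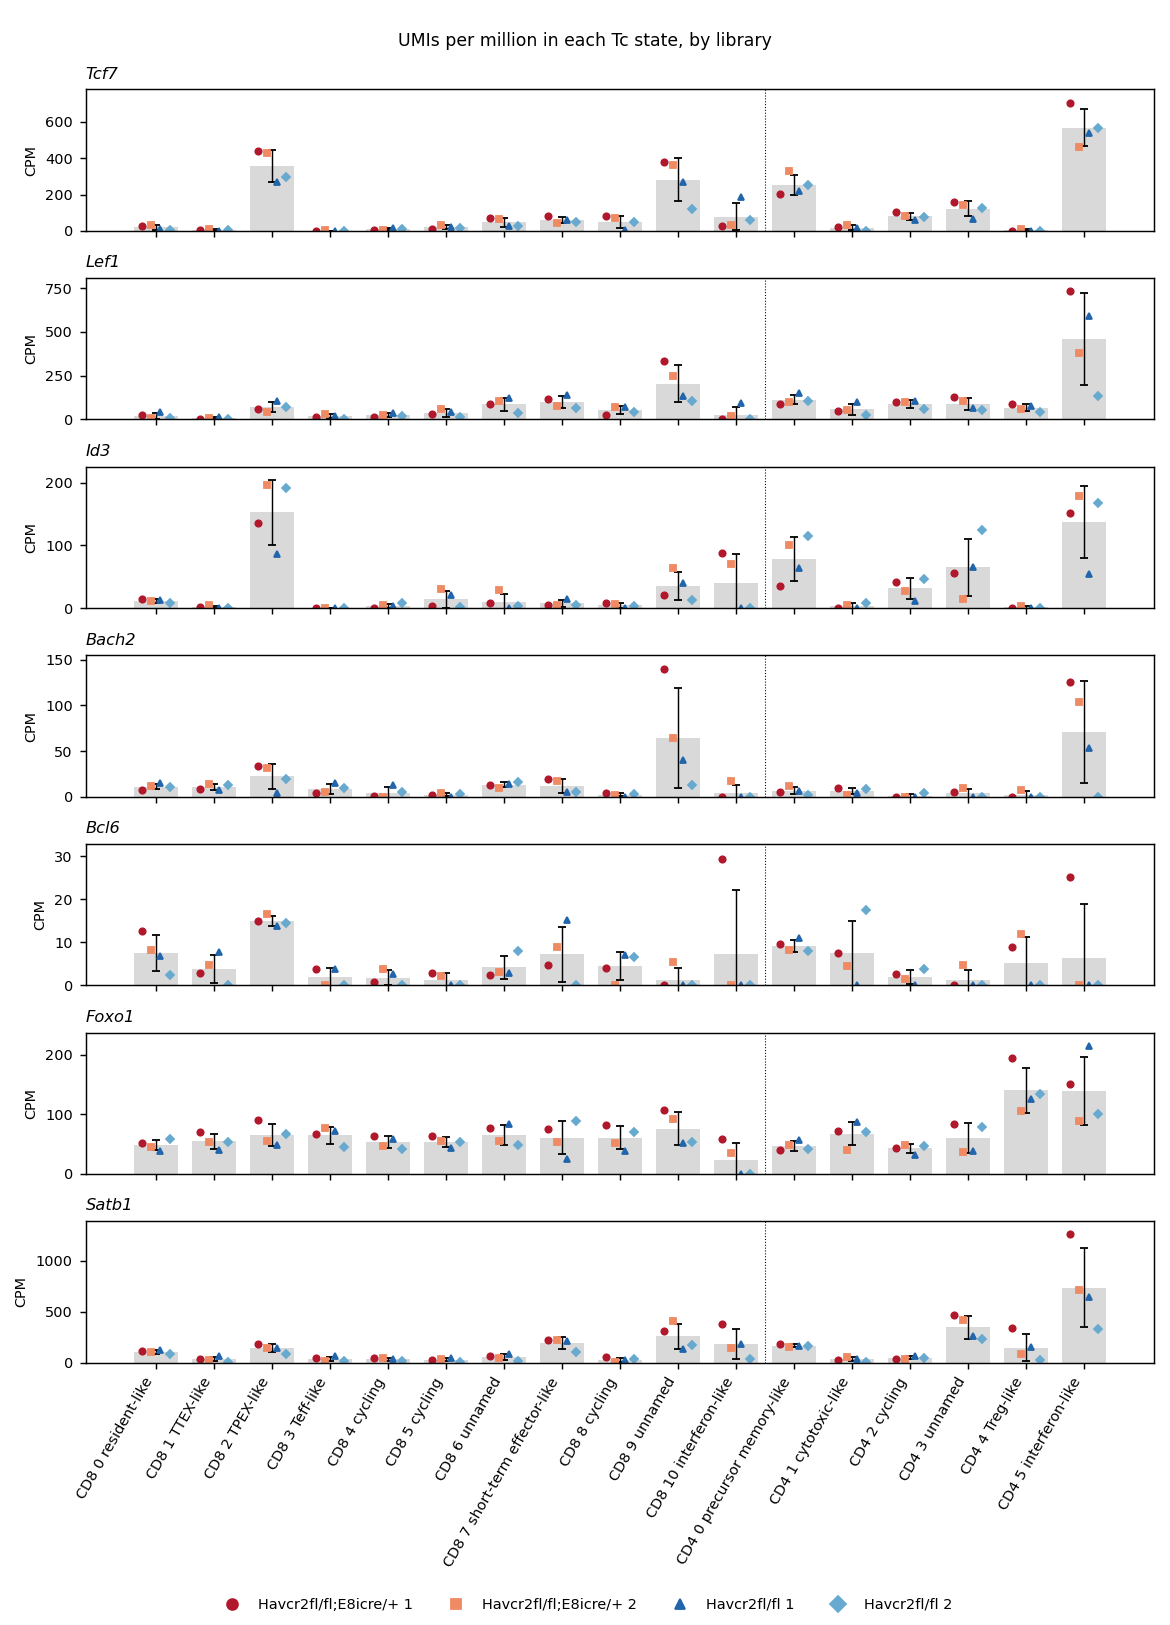
Level of each gene (CPM, linear axes that differ between genes) in 11 CD8+ and 6 CD4+ Tc states; points are the 4 libraries, bars their mean and error lines the SD. Tcf7 and Id3 stand out in the TPEX-like cluster (means 358 and 152 CPM), Lef1 and Satb1 are spread over several states, and Foxo1 is nearly even among CD8+ states.

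Among the 6 CD4+ Tc states, the smallest was an interferon-like cluster of 49 cells (12, 23, 4 and 10). Its leading genes also included Ly6c1 and Igfbp4, the latter listed as a naive or memory marker of CD4+ Tc. The part of naive or memory cells in this cluster was not tested. Among the CD4+ states Tcf7 was highest in this cluster. It stood there at 706, 462, 538 and 567 CPM, Satb1 at a mean of 738 CPM, Lef1 at 731, 380, 592 and 134 CPM and Bach2 at a mean of 70.8 CPM. For Tcf7 this state did not overlap with the next, the precursor memory-like cells, whereas for Lef1, Id3, Bach2 and Satb1 the libraries of neighbouring states overlapped. Precursor memory-like cells were the main CD4+ state (1038 cells, 59.2% of CD4+ Tc), although at a higher cluster resolution only 306 cells took that name. In the main clustering they had Tcf7 at 204, 327, 221 and 253 CPM, against 92.2, 98.1, 52.5 and 89.6 CPM in the other CD4+ Tc. The ratio was positive in 4 of 4 libraries for Tcf7 (log2 1.60 ± 0.39), Id3 (1.30 ± 0.82), Bcl6 (1.44 ± 1.44) and Satb1 (0.52 ± 0.36; SD, n = 4 each), and in 2 of 4 for Lef1 and Bach2. Foxo1 ran the other way, lower in precursor memory-like cells in 4 of 4 libraries (log2 -0.49 ± 0.29), but at a higher cluster resolution the ratio was -0.13 and 2 of 4 libraries were higher, and 1 of 4 was higher without integration or with the 7 genes allowed in the clustering.

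Cytotoxic-like CD4+ Tc (293 cells) were low in Tcf7 (mean 18.2 CPM) and Id3 (3.33 CPM), like their CD8+ counterparts. Their mean Lef1, 57.5 CPM, was the lowest among the CD4+ states, with libraries that overlapped those of the next state. Treg-like cells (111 cells, of which 5 came from the library labelled Havcr2fl/fl 1) had 3 Tcf7 UMIs and 1 Id3 UMI in all, but the highest mean Foxo1 of any state at 195, 107, 127 and 135 CPM. Foxo1 in Treg-like cells overlapped with that in the interferon-like CD4+ cells (mean 139 CPM) and with CD8+ cluster 9, whose highest library was at 107.9 CPM against 106.6 CPM in the lowest of the Treg-like cells. Erythroid markers summed to as much as 45720 CPM in the Treg-like cells of 1 library, and their part in these levels was not tested.

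The genes nearest to each member over the 17 states are given as a description. After Id3, the genes most like Tcf7 were Emb (r = 0.914) and Slamf6 (0.887), and those most like Id3 after Tcf7 were again Emb (0.892) and Slamf6 (0.871), Slamf6 being one of the markers used to name the TPEX-like cluster. Lef1 was closest to Kbtbd11 (0.895), Klf3 (0.850) and S1pr1 (0.844), the last an egress receptor of recirculating Tc. Satb1 was closest to Ssbp2 (0.937), Prdx6 (0.933) and Ssh2 (0.922), Foxo1 to Osbpl9 (0.905), Pum2 (0.903) and Usp16 (0.850), Bach2 to Rps27rt (0.887), Crlf3 (0.826) and Epb41l4aos (0.805), and Bcl6 to Swt1 (0.820), Smpdl3a (0.810) and Cited2 (0.807). Between the members themselves r ran from 0.76 for Tcf7 and Lef1 to -0.02 for Tcf7 and Foxo1 among the pairs with Tcf7 other than Id3, and Foxo1 thus stood apart from Tcf7.

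CD8+ and CD4+ Tc of the same mouse were then compared, a test that does not use the states, although Tc themselves had been picked by cluster. The sums of counts over each lineage were fitted with edgeR's quasi-likelihood test with the mouse as a block, and p-values were adjusted over all 10309 genes tested. Tcf7 was lower in CD8+ Tc, at 58.7, 109, 55.6 and 41.2 CPM against 132, 220, 156 and 170 CPM in CD4+ Tc, and all 4 CD8+ values lay under the lowest CD4+ value. The difference was -1.35 on the log2 scale (SE 0.12, edgeR adjusted p = 2.78e-06). Lef1 was lower by a similar amount, at 30.01, 43.2, 64.0 and 21.8 CPM against 90.3, 102, 135 and 81.1 CPM (log2 difference -1.39, SE 0.11, edgeR adjusted p = 5.97e-07). Satb1 also fell, at 72.0, 87.9, 92.3 and 38.2 CPM against 144, 150, 142 and 123 CPM (log2 difference -0.95, SE 0.12, edgeR adjusted p = 4.70e-05), and neither Lef1 nor Satb1 overlapped between the lineages.

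Id3 was lower in CD8+ Tc in each of the 4 mice, at 16.0, 47.0, 17.4 and 20.5 CPM against 30.5, 66.6, 45.0 and 84.1 CPM, although the lineages overlapped between mice (log2 difference -1.05, SE 0.19, edgeR adjusted p = 0.000973; -1.11 with adjusted p = 0.0803 without the mouse block). Bach2 was the only member higher in CD8+ Tc, at 8.93, 14.2, 10.9 and 9.60 CPM against 5.85, 11.4, 5.37 and 2.93 CPM (log2 difference 0.64, SE 0.22, edgeR adjusted p = 0.0486). That call was lost under 9 alternatives, among them leaving out CD8+ cluster 9 (0.47, adjusted p = 0.161), DESeq2 (0.77, adjusted p = 0.172) and leaving out any of 3 libraries, those labelled Havcr2fl/fl;E8icre/+ 1, Havcr2fl/fl 1 and Havcr2fl/fl 2 (edgeR adjusted p = 0.125, 0.123 and 0.0993). Foxo1 (0.07, SE 0.10, edgeR adjusted p = 0.656) and Bcl6 (-0.21, SE 0.27, edgeR adjusted p = 0.631) did not pass. Over all genes tested, 12.3% were called lower and 12.1% higher in CD8+ Tc, so 4 of 7 members were lower against 1267 of 10309 genes and 1 of 7 was higher.

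Of 25 other genes of the same network, listed by role, 24 were tested. The list was made with earlier results of these data known. Slamf6, Xcl1, Cxcr5 and Il7r in it were also markers used to name the TPEX-like cluster. Of 8 genes carried by stem-like and resting Tc, 6 were lower in CD8+ Tc and none higher, with a median log2 difference of -1.36 against 0.00386 over all genes. They included Ccr7 (-2.39), the lymph node homing receptor, Il7r (-1.93), Cxcr5 (-1.71) and Slamf6 (-1.51). Ccr7 and Cxcr5 would not have passed the filter on low counts from CD8+ Tc alone. The filter thus favoured their direction, and this count is a description. Of 9 partner genes, 2 were higher (Foxo3 at 0.66, Tle4 at 0.36) and 1 lower (Tcf3, an E protein, at -0.29). Of 7 opposing factors, Zeb2 (0.67), Tox (0.64) and Tbx21 (0.30) were higher and Irf4 (-0.82) and Batf (-0.29) lower.

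**Figure D2:**
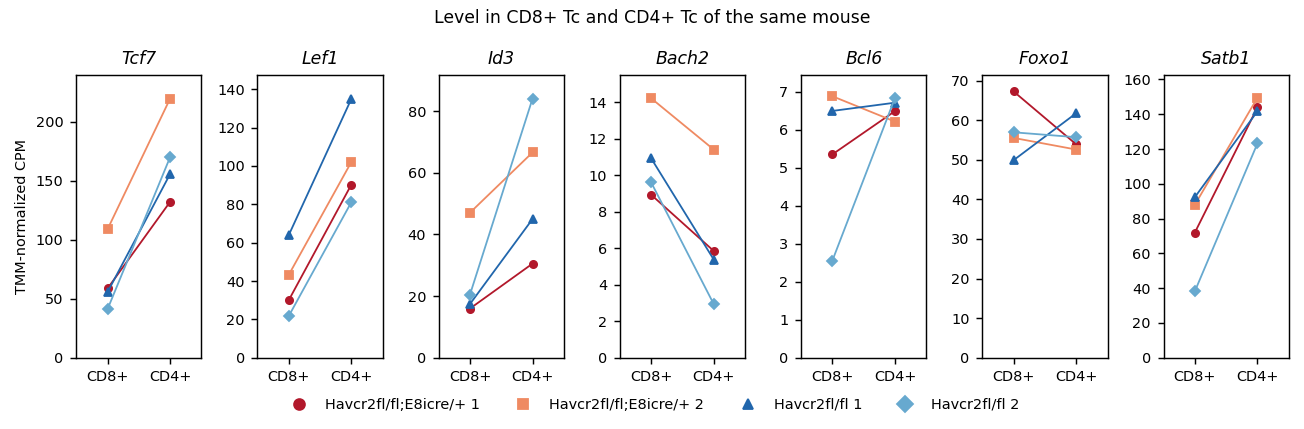
TMM-normalized CPM of each gene in CD8+ Tc and in CD4+ Tc, with a line for each of the 4 mice (linear axes from 0 that differ between genes). Tcf7, Lef1, Id3 and Satb1 rise from CD8+ to CD4+ Tc in 4 of 4 mice, Bach2 falls in 4 of 4, and Foxo1 and Bcl6 lines run both ways.

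Co-detection was first tested over mice. Each cell was thinned to 2000 UMIs, CD8+ Tc were divided into those with and without a Tcf7 UMI (135 of 1497, 139 of 947, 37 of 472 and 73 of 1138 cells with one), counts were summed per mouse, and the sums were fitted with edgeR with the mouse as a block. Id3 was at 79.4, 213, 86.5 and 175 CPM in cells with a Tcf7 UMI and at 14.5, 25.7, 15.6 and 16.7 CPM in cells without (log2 difference 2.92, SE 0.23, edgeR adjusted p = 5.85e-10). Every library with a Tcf7 UMI lay above every library without. Lef1 was at 86.9, 89.1, 173 and 87.3 CPM with and 22.5, 30.2, 78.0 and 15.3 CPM without a Tcf7 UMI (log2 difference 1.73, SE 0.24, edgeR adjusted p = 1.02e-05), and these libraries did not overlap either. Satb1 rose less, from 80.1, 83.0, 106 and 45.0 CPM without to 185, 182, 216 and 80.1 CPM with a Tcf7 UMI (log2 difference 1.11, SE 0.16, edgeR adjusted p = 2.05e-05), in each mouse but with overlap between mice.

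Bach2 was at 30.2, 38.7, 28.8 and 36.4 CPM with and 6.88, 9.65, 8.40 and 10.5 CPM without a Tcf7 UMI (log2 difference 1.96, SE 0.39, edgeR adjusted p = 0.000873). This rests on 8, 10, 2 and 5 Bach2 UMIs in the cells with Tcf7, and under a stricter cell filter edgeR gave 1.57 with adjusted p = 0.0907. Without CD8+ cluster 9, 4 members were tested, and Lef1, Id3 and Satb1 were called but not Bach2. Foxo1 was at 132, 62.0, 28.8 and 80.1 CPM with and 59.8, 58.6, 57.6 and 56.9 CPM without (log2 difference 0.56, SE 0.24, edgeR adjusted p = 0.158), higher in 3 of 4 mice. It passed when cells were thinned to 3000 UMIs (0.66, edgeR adjusted p = 0.0143) or not thinned (0.49, adjusted p = 0.00646). Bcl6 was too sparse for the filter on low counts, with 4, 4, 2 and 2 UMIs in the cells with Tcf7. So 4 of the 5 members tested beside Tcf7 were higher in Tcf7-positive CD8+ Tc, against 5.38% of the 6372 genes tested. Id3, Lef1 and Bach2 would not have passed the filter on low counts from the cells without a Tcf7 UMI alone. The filter thus favoured their direction, and the count is a description.

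Restricted to TPEX-like cells, only 2 members passed the filter on low counts, with a difference of 0.20 for Id3 (edgeR adjusted p = 0.877) and -0.13 for Satb1, and Lef1, Bach2 and Foxo1 were not tested there. Among the other network genes, 6 of 6 stem-like and resting genes tested were higher in cells with a Tcf7 UMI, with a median log2 difference of 2.39 against 0.0157 over all genes. They included Slamf6 (2.996), Xcl1 (2.45), a chemokine for cross-presenting dendritic cells, Il7r (2.32), S1pr1 (1.77) and Klf2 (1.27). Of 6 opposing factors tested, 3 were lower and none higher, namely Prdm1 (-1.79), Zeb2 (-0.94) and Id2 (-0.75), the last an inhibitor of E proteins like Id3. Over all 6372 genes tested, 278 were called lower. Prdm1 would not have passed the filter on low counts from the cells with a Tcf7 UMI alone, nor Xcl1 from those without. The filter thus favoured the direction of these genes, and the counts for both roles are a description. Of 9 partners, Tcf12, an E protein, was higher (0.74) and the others did not pass.

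**Figure D3:**
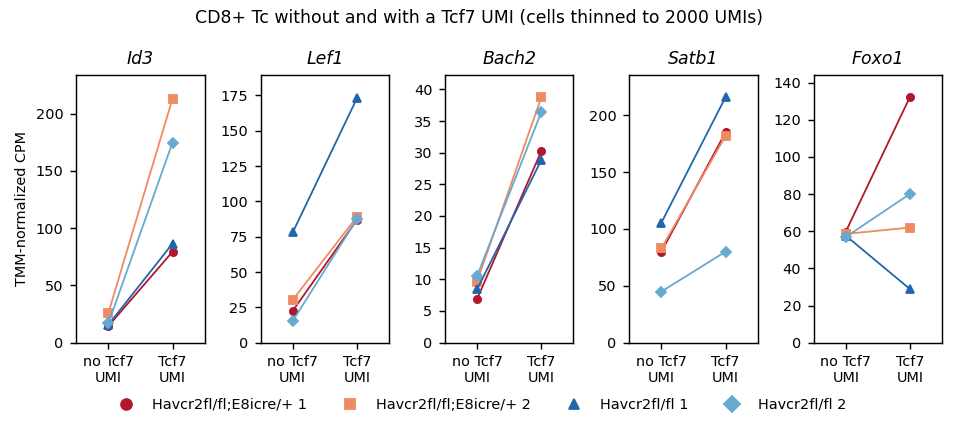
TMM-normalized CPM of 5 genes in CD8+ Tc without and with a Tcf7 UMI, after thinning each cell to 2000 UMIs, with a line for each of the 4 mice (linear axes from 0 that differ between genes). Id3, Lef1, Bach2 and Satb1 rise in 4 of 4 mice and Foxo1 in 3 of 4.

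The same division of CD4+ Tc gave smaller differences. Id3 was at 53.8, 191, 206 and 180 CPM with and 13.4, 49.5, 30.7 and 75.4 CPM without a Tcf7 UMI (log2 difference 1.91, SE 0.22, edgeR adjusted p = 2.66e-06), higher in 4 of 4 mice with overlap between mice. Lef1 was at 199, 174, 206 and 124 CPM against 75.0, 89.5, 150 and 91.0 CPM (0.91, SE 0.18, edgeR adjusted p = 0.00167), and Satb1 at 328, 234, 187 and 247 CPM against 196, 150, 138 and 109 CPM (0.73, SE 0.16, edgeR adjusted p = 0.00409). Both were higher in 4 of 4 mice, and both calls were lost with DESeq2 (adjusted p = 0.0629 for Lef1 and 0.0505 for Satb1) and, in edgeR, without the mouse block (0.0865 and 0.122). Foxo1 did not pass (0.42, SE 0.23, edgeR adjusted p = 0.395), and Bach2 and Bcl6 were too sparse to be tested. Of the 4976 genes tested, 2.25% were called higher, and 3 of the 4 members tested were. Id3 would not have passed the filter on low counts from the cells without a Tcf7 UMI alone, so this count too is a description.

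In the wider network of CD4+ Tc, Slamf6 (1.54), S1pr1 (0.80), Klf2 (0.75) and Il7r (0.60) were higher in cells with a Tcf7 UMI and Xcl1 lower (-1.77), so 4 of 5 stem-like and resting genes tested went up and 1 went down, with a median of 0.748 against 0.00464 over all genes. Xcl1 in CD4+ Tc was at 5.38, 36.8, 9.36 and 0 CPM with and 45.9, 61.25, 6.13 and 184.5 CPM without a Tcf7 UMI. The library labelled Havcr2fl/fl 1 thus went the other way, and the largest fall was in that labelled Havcr2fl/fl 2. The fitted difference of Xcl1 was positive in CD8+ Tc and negative in CD4+ Tc, a difference between lineages that was not tested. Prdm1 (-1.69) and Id2 (-0.52) were lower, 2 of 4 opposing factors tested, and none of 7 partners passed. Over all 4976 genes tested, 122 were called lower. Prdm1 and Xcl1 would not have passed the filter on low counts from the cells with a Tcf7 UMI alone, so these counts too are a description.

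Cell by cell, the number of cells with a UMI of both genes was set against the number that the product of the single shares gives, within each library; this is a description, since cells are not replicates. Over all CD8+ Tc, 73 cells had Tcf7 and Id3 where the product gives 16.7, a mean ratio of 4.52 ± 1.24 (SD, n = 4; 3.19 to 5.85). Tcf7 and Lef1 were found together in 58 cells against 23.2 (2.80 ± 1.20), Tcf7 and Satb1 in 82 against 51.6 (1.65 ± 0.21), and Tcf7 and Bach2 in 21 against 7.52 (2.68 ± 0.54), each above 1 in 4 of 4 libraries. Tcf7 and Bcl6 shared 12 cells, and the ratio of 3.89 ± 2.71 is correspondingly loose. Tcf7 and Foxo1 were close to the product (1.17 ± 0.54, above 1 in 2 of 4 libraries), as were Foxo1 and Satb1 (1.02 ± 0.22). Among pairs without Tcf7, Lef1 and Id3 (2.22 ± 0.87), Lef1 and Satb1 (1.69 ± 0.30) and Id3 and Satb1 (1.64 ± 0.62) were above 1 in 4 of 4 libraries.

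Within the TPEX-like cluster the pairs were near the product of their shares, at 1.13 ± 0.18 for Tcf7 and Id3, 1.25 ± 0.49 for Tcf7 and Lef1 and 0.88 ± 0.17 for Tcf7 and Satb1. A ratio cannot exceed 1 divided by the larger share of the pair. Tcf7 was seen in a larger share of TPEX-like cells and of CD4+ Tc than of all CD8+ Tc. Sizes of the ratios are therefore not directly comparable between these groups of cells. Outside it Tcf7 and Lef1 were still found together more often, in 30 cells against 8.09 (3.82 ± 0.67), and without cluster 9 as well in 15 cells against 5.53. Tcf7 and Id3 shared 10 cells outside the TPEX-like cluster where the product gives 1.68, a ratio of 6.35 ± 5.40 that was above 1 in 3 of 4 libraries, and 8 cells against 1.18 without cluster 9 as well. Both pairs were thus found together more often than the product among the remaining CD8+ Tc, although those with Id3 were few. In CD4+ Tc the ratios were lower, 2.39 ± 0.26 for Tcf7 and Id3 (67 cells against 29.9), 1.43 ± 0.22 for Tcf7 and Lef1, 1.25 ± 0.25 for Tcf7 and Satb1 and 1.41 ± 0.04 for Lef1 and Satb1. Id3 and Foxo1 were the one well populated CD4+ pair below the product in 4 of 4 libraries, in 8 cells against 14.1 (0.46 ± 0.33).

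**Figure D4:**
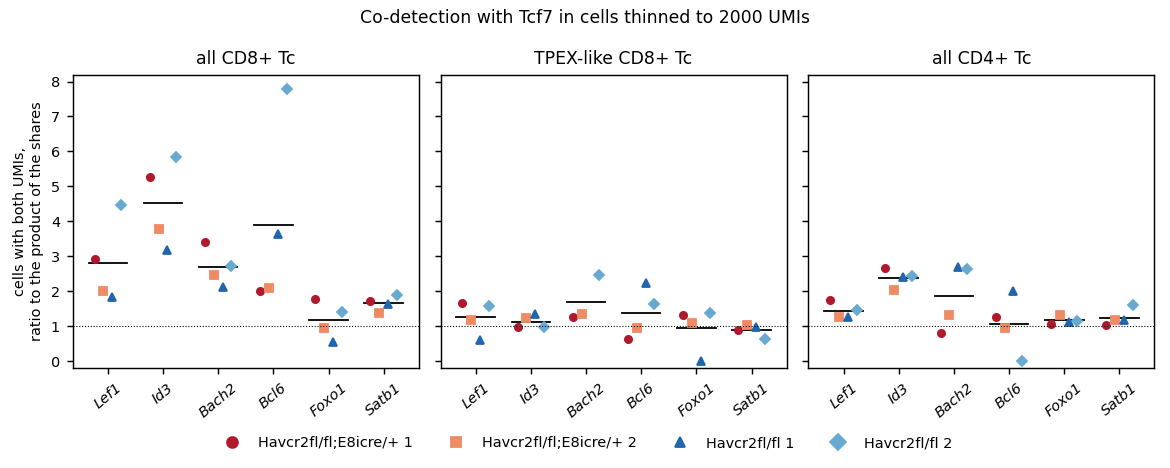
Ratio of the cells with UMIs of both Tcf7 and the named gene to the number given by the product of their shares, in cells thinned to 2000 UMIs; points are libraries, the short lines their mean and the dotted line a ratio of 1. Id3 stands at 4.52 over all CD8+ Tc and 1.13 within TPEX-like cells, where Bach2 has no point for the library labelled Havcr2fl/fl 1 because no thinned cell there had a Bach2 UMI. The highest possible ratio is lower where Tcf7 is seen in a larger share of cells, so sizes are not directly comparable between panels.

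Counting how many of the 7 genes had a UMI in a thinned cell gave 1.18 ± 0.11 genes per TPEX-like cell (SD, n = 4) against 0.49 ± 0.10 over all CD8+ Tc, 0.22 ± 0.06 in TTEX-like and 0.22 ± 0.08 in Teff-like cells. At least 2 of the 7 were seen in 38.8, 36.6, 28.1 and 34.7% of TPEX-like cells, against 2.22% of TTEX-like and 1.12% of Teff-like cells on average. Cluster 9 had 1.38 ± 0.45 genes, and its libraries (0.786 to 1.80) extended past those of the TPEX-like cells (1.047 to 1.283) on both sides. CD4+ Tc had 0.82 ± 0.09 genes per cell, precursor memory-like cells 0.92 ± 0.10, and the interferon-like CD4+ cluster 2.21 ± 0.59, with 63.5% of its cells holding at least 2. Cells without a UMI at this depth may still express a gene.

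The genotype comparison asks whether the level of these regulators differs when TIM-3 is deleted in CD8+ Tc, with 2 libraries against 2. In CD8+ Tc none of the 7 genes passed, against 0.0276% of the 10882 genes tested (3 genes, Xlr, Prdm16 and Tigit; 290 had an unadjusted p under 0.05). Tcf7 was at 56.8 and 108 CPM in the libraries labelled Havcr2fl/fl;E8icre/+ and at 54.7 and 40.6 CPM in those labelled Havcr2fl/fl (log2 difference 0.79, SE 0.29, edgeR adjusted p = 1.00). Library 1 of the first group lay just above the controls in Tcf7 and within their range in Havcr2, and the difference ranged from 0.26 to 1.17 on leaving out 1 library. With no filter on low counts, which tests more genes, Tcf7 was called (0.81, edgeR adjusted p = 0.0321). Tcf7 was the 1 member of 7 whose groups did not overlap, against 27.9% of all genes. The log2 differences of the others were 0.71 for Id3, 0.45 for Bcl6, 0.29 for Satb1, 0.19 for Foxo1, 0.16 for Bach2 and -0.23 for Lef1, and leaving out 1 library turned the sign of Id3, Bcl6, Satb1, Bach2 and Lef1.

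CD4+ Tc, in which E8i-cre is not meant to act, also gave no call among the 7 genes, against 0.0104% of 9648 genes (Eps8l1 only; 303 had an unadjusted p under 0.05, and DESeq2 called 5 genes, none of them a member). The largest difference was that of Bach2, at 5.96 and 11.7 CPM against 5.46 and 2.998 CPM (log2 1.01, SE 0.55, edgeR adjusted p = 1.00). Tcf7 was at 135 and 225 CPM against 158 and 174 CPM, and its groups overlapped. The genotype difference in CD8+ Tc minus that in CD4+ Tc was 1.08 for Id3 (SE 0.25) and 0.66 for Tcf7 (SE 0.17), each with edgeR adjusted p = 0.880, where 0.0184% of 10879 genes were called (Tigit and Trat1; 474 had an unadjusted p under 0.05). Id3 was called without the library labelled Havcr2fl/fl;E8icre/+ 1 (1.23, edgeR adjusted p = 0.00609), and both were called with no filter on low counts (adjusted p = 0.00153 for Id3 and 0.00792 for Tcf7).

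Within TPEX-like cells 6 members were tested and none passed, against 0.0303% of 6591 genes (Ccl5 and Eps8l1; 427 had an unadjusted p under 0.05). Tcf7 was at 447 and 449 CPM in the libraries labelled Havcr2fl/fl;E8icre/+ and at 277 and 310 CPM in those labelled Havcr2fl/fl (log2 0.61, SE 0.22), Lef1 at 61.5 and 46.3 against 111 and 73.7 CPM (-0.81, SE 0.29), and Bach2 at 34.2 and 33.2 against 4.73 and 20.3 CPM (1.44, SE 0.51), each with edgeR adjusted p = 0.646. Tcf7 and Bach2 were thus higher and Lef1 lower in both libraries of the first group, although its library 1 had Havcr2 at the level of the controls in CD8+ Tc as a whole. The groups did not overlap for 4 of the 6, Satb1 being the other (0.51, SE 0.26, edgeR adjusted p = 0.787), against 36.4% of all genes tested. Bach2 would not have passed the filter on low counts from the libraries labelled Havcr2fl/fl alone, so this count is a description. Bach2 was called without the library labelled Havcr2fl/fl 2 (2.79, edgeR adjusted p = 0.047), where the only control left held 2 Bach2 UMIs and is assumed to vary like the other libraries. Id3 (0.26) and Foxo1 (0.28) overlapped, and Bcl6 was too sparse for the filter.

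The shares of TPEX-like cells ran the same way as these levels. A Tcf7 UMI was seen in 52.9 ± 0.59% of them (SD, n = 2) against 35.2 ± 7.77%, and a Lef1 UMI in 6.51 ± 0.84% against 19.2 ± 10.4%, each with a two-sided exact permutation p = 0.3333, the smallest that 2 against 2 can give. Over all CD8+ Tc a Tcf7 UMI was seen in 9.02 and 14.7% against 7.84 and 6.42% of cells (exact permutation p = 0.3333). At 3000 UMIs per cell the shares of Tcf7 in all CD8+ Tc overlapped (exact permutation p = 0.667), and those in TPEX-like cells did not. A stricter cell filter (1000 genes, 5% mitochondrial UMIs) cut the TPEX-like cells from 153, 184, 68 and 125 to 72, 117, 60 and 90. At 2000 UMIs per cell, 79, 99, 33 and 54 CD8+ Tc then had a Tcf7 UMI and 1186, 742, 424 and 986 had none. Under that filter the share in the library labelled Havcr2fl/fl;E8icre/+ 1 lay between those of the controls. Bulk levels of a lineage cannot tell more TPEX-like cells from more Tcf7 per cell, and the TPEX-like share itself was 10.0 and 19.2% against 14.0 and 9.72% of CD8+ Tc, which overlapped. None of the 25 network genes passed in any of these 4 genotype comparisons, but not all could be tested. Tle1 was too sparse in CD4+ Tc, in the interaction and in TPEX-like cells. Bach1, Foxo3, Ccr7, Irf4 and Prdm1 were too sparse in TPEX-like cells.

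**Figure D5:**
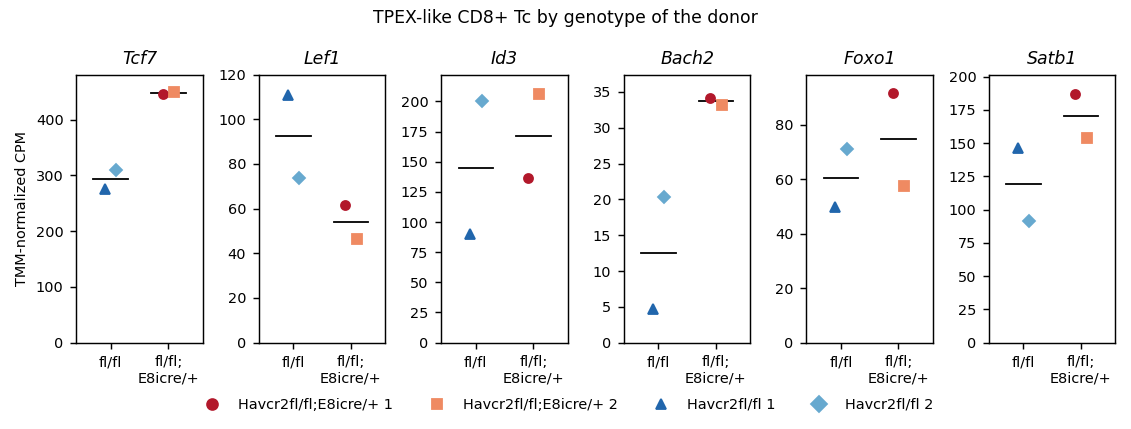
TMM-normalized CPM of 6 genes in TPEX-like CD8+ Tc by the labelled genotype of the donor; points are the 4 libraries and the short lines group means (linear axes from 0 that differ between genes). Tcf7, Bach2 and Satb1 are higher and Lef1 lower without overlap in the libraries labelled Havcr2fl/fl;E8icre/+, Id3 and Foxo1 overlap, and no difference passed the adjusted threshold.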

How the data were processed

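Tc were isolated from spleens (per the labels with a pan-T cell kit; the study also speaks of sorted cells), stained with an oligo-tagged antibody to the donor H-2Kb, and made into 10x Genomics 3′ v3.1 libraries, 1 per mouse. The deposited values are raw UMI counts per gene and cell barcode, which the authors made with Cell Ranger 6.1.2 on mm10, per the submitters' processing notes. The clustering of the authors was not used here, and clusters were rebuilt, so their names may differ from those of the study.

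A barcode had to hold 500 genes, 1000 UMIs and no more than 10% UMIs of mitochondrial genes, and doublets marked by Scrublet (scanpy 1.11.5; 125 barcodes, 109 of them from the library labelled Havcr2fl/fl 2) were removed. Tc clusters (Seurat 5.3.0, 2000 variable genes, 30 dimensions, 20 neighbors, integrated over libraries) were divided by lineage UMIs and clustered again without the 7 genes, Havcr2, sex-linked genes and antigen receptor genes. Cells were not selected on the donor tag in the main analysis. Total gene UMIs were 38386626, 31449644, 17693991 and 55045903 per library. Sums per library were tested with edgeR 4.0.16 (TMM, filterByExpr, quasi-likelihood, Benjamini-Hochberg over all genes, threshold 0.05). Alternatives were DESeq2 1.42.0, other normalization, filters, doublet rules, clusterings and depths of thinning, donor tag-positive cells alone, a replicate block and leaving out each library. The code was tested on simulated data (R 4.3.3, Python 3.11.15). Zero-count limits cover counting error only. In genotype tests without a block, p-values measure the spread between these 4 mice. With the mouse as a block they measure the spread over the mice of the difference within a mouse. The block was used for CD8+ against CD4+ Tc, for cells by a Tcf7 UMI and for the interaction.

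The 7 genes, the 25 network genes and the tests were chosen with earlier results of these data known. Named in every comparison were the 7 genes, network genes past the threshold (the 4 largest per role, S1pr1, Klf2, Il7r and Batf being added after their values were seen) and the 3 genes nearest each member with a mean of at least 20 CPM. The values of 1 network gene that the rule names are not reported here. Because replicate numbers in the labels are shared between genotypes, deviations of same-numbered libraries were correlated: r was -0.112 in CD8+ Tc, -0.0621 in CD4+ Tc and -0.00363 in TPEX-like cells, so the numbers were not taken to pair the mice.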

Additional observations from a re-analysis of the deposited data

Results flagged for a closer look

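In CD4+ Tc the log2 ratio of Lef1 between precursor memory-like and other cells was -0.13 and -0.09 in the libraries labelled Havcr2fl/fl;E8icre/+ and 0.42 and 0.99 in those labelled Havcr2fl/fl. Every library of a genotype thus moved against every library of the other, with a difference of group means of -0.81, and that difference was not tested. It depended on the clustering: at a higher resolution the ratios were 1.69 and 1.45 against 0.95 and 1.12, and without integration -0.42 and -0.50 against -0.24 and 0.01.

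Tc outside both lineages also carried these transcripts, above the 3 counts taken as the floor. In 221 Tc with UMIs of both lineages the mean levels were 145.0 CPM for Tcf7, 70.7 CPM for Lef1, 44.5 CPM for Id3, 7.30 CPM for Bach2, 8.99 CPM for Bcl6, 84.7 CPM for Foxo1 and 104.9 CPM for Satb1. In 532 Tc with UMIs of neither lineage they were 205.1 CPM for Tcf7, 104.8 CPM for Lef1, 58.9 CPM for Id3, 12.7 CPM for Bach2, 9.22 CPM for Bcl6, 69.2 CPM for Foxo1 and 175.3 CPM for Satb1. These cells entered no comparison of the report.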

How the results depend on the processing

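Outside the main results, 402 values of genes and pairs stayed the same under alternatives other than leaving out a library. Of the rest, 13 lost and 5 gained a call, 8 moved and 9 reversed. Same meant direction and side of the threshold for a test, direction for a share, and within the SD of the main value for a ratio. The main results were numbers of genes called, TPEX-like and Tcf7 ratios, the main Tcf7 pairs, and Tcf7 and Lef1 shares. Among them 84 values stayed the same, 38 moved and 1 reversed. The cause was not tested for any change. Genes called by genotype in CD8+ Tc (3) became 89 with no filter on low counts. In CD4+ Tc (1 gene), edgeR called 0 with doublets by the expected rate, a stricter cell filter, Tc by a Cd3 UMI and DESeq2 size factors (298, 280, 537 and 301 genes at an unadjusted p under 0.05), 45 with no filter, DESeq2 called 5, and Bcl6 reversed to 0.17 and 0.18 with the stricter filter and the Cd3 UMI. In TPEX-like cells (2), no integration, the stricter filter and size factors gave 1, a higher resolution 5 and no filter 51. The interaction (2) gave 4 with the stricter filter and 56 with no filter, and Lef1 was 0.020 by DESeq2. CD8+ against CD4+ Tc (2519) gave 1490 by DESeq2 and 1012 without the mouse block. CD8+ Tc by a Tcf7 UMI (621) gave 975 at 3000 UMIs, 1413 unthinned, 28 in TPEX-like cells, 342 by DESeq2 and 253 without the mouse block, and Satb1 was -0.13 in TPEX-like cells. CD4+ Tc by a Tcf7 UMI (234) gave 451 unthinned, 137 with the stricter filter, 92 by DESeq2 and 63 without the mouse block.

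Same-numbered libraries share only a number. With the replicate block edgeR called 0 genes in CD8+ Tc and 0 in CD4+ Tc (198 and 236 at an unadjusted p under 0.05) and 3 in TPEX-like cells. The crossed pairing, added after seeing the data as were the analyses without cluster 9 or cycling cells, called 61 in CD8+ Tc.

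The log2 ratio of Tcf7 was 4.21 in TPEX-like cells at a lower resolution, and 2.52 and 1.15 in precursor memory-like cells at a higher resolution and without integration, where Lef1 was -0.29 (no integration). At the higher resolution Lef1 was 1.30 (4 of 4 libraries positive), Bach2 1.23, Id3 2.65 and Satb1 1.41. The TPEX-like share with a Tcf7 UMI was 55.3% at 3000 UMIs and 63.1% unthinned. Co-detection ratios in TPEX-like cells were 1.25 for Tcf7 and Lef1, 1.13 for Id3, 0.88 for Satb1 and 0.95 for Foxo1. Over all CD8+ Tc at 3000 UMIs they were 6.43 for Id3 and 2.01 for Satb1, and in unthinned CD4+ Tc 2.11 for Id3. The genotype difference in the TPEX-like share with a Bcl6 UMI, -0.99 percentage points, became 1.10 at 3000 UMIs and 0.996 unthinned.

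Leaving out each library gave 1 to 10 calls in CD8+ Tc (10 without Havcr2fl/fl;E8icre/+ 1, 1 without 2, 7 without Havcr2fl/fl 2), 5 to 27 in CD4+ Tc (27, 25, 6 and 5 in library order), 10 to 67 in TPEX-like cells (19, 10, 56 and 67), 2 to 33 for the interaction (23 without Havcr2fl/fl;E8icre/+ 1, 7 without 2, 33 without Havcr2fl/fl 2), 365 to 644 by Tcf7 in CD8+ Tc (365 without Havcr2fl/fl;E8icre/+ 1) and 149 to 209 in CD4+ Tc (149 without Havcr2fl/fl;E8icre/+ 2). Where a genotype was left with 1 library, it is assumed to vary like the others. Genotype differences ranged in CD8+ Tc from -0.82 to 0.74 (Lef1), -0.27 to 1.31 (Id3), -0.22 to 0.47 (Bach2), -0.10 to 1.24 (Bcl6) and -0.22 to 1.06 (Satb1). In CD4+ Tc they ranged from -0.30 to 0.44 (Tcf7), -0.49 to 0.25 (Lef1) and -1.06 to 0.13 (Id3), in TPEX-like cells from -0.23 to 0.95 (Id3) and -0.053 to 0.60 (Foxo1), and for the interaction from -0.33 to 0.49 (Lef1), -0.011 to 1.35 (Bcl6) and -0.27 to 0.80 (Satb1). Foxo1 in CD8+ against CD4+ Tc ranged from -0.039 to 0.17, Bach2 in precursor memory-like cells from -0.28 to 0.19, and co-detection of Tcf7 from 0.964 to 1.38 with Foxo1 (CD8+) and 0.728 to 1.40 with Bcl6 (CD4+). Share differences in percentage points ranged in CD8+ Tc from -9.36 to 1.78 (Lef1), -0.781 to 3.20 (Id3), -0.0615 to 1.07 (Bcl6) and -3.995 to 6.23 (Satb1), and in TPEX-like cells from -2.22 to 7.58 (Id3) and -2.06 to 0.0845 (Bcl6). Low UMI counts limit the precision for Bcl6, Bach2 and the small states.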
